A study of Arabidopsis thaliana with 15 samples.

Results

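Individually darkened leaves of Arabidopsis thaliana were compared, after 6 days under a cover, with leaves of the same species sampled in light. Of the 15 arrays of the series, 6 belong to this comparison, 3 individually darkened leaf (IDL) arrays at day 6 and 3 light arrays at day 0. All 16174 genes whose Affymetrix probe sets name exactly 1 gene were examined, whether or not they carry a symbol. A further 3 arrays of IDL at day 3 and 3 arrays of the darkened plant (DP) at day 6 serve as side comparisons.

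All plants were of ecotype Col-0, with no transgene or mutation named in the labels, and were grown at 22 °C in short days with 8 h of light and 16 h of dark. For IDL, 2 fully grown leaves of a plant were each enclosed in a foil-coated plastic cover, and the other leaves went on in the usual day and night. For DP, the plant as a whole stood in a dark box in the same chamber. Light leaves were taken before any darkening, so 6 days of darkness and 6 days of added leaf age cannot be told apart. Each group has 3 biological replicates (n = 3 for every value below), each of which pooled 2 leaves of independent plants. The tissue is whole leaf, in which fewer cells of a type and less RNA per cell cannot be told apart.

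A single leaf kept dark on a plant that stays in light is a classical way to bring on leaf senescence. Such a leaf makes no sugar of its own, takes down its chloroplasts, burns amino acids as respiratory fuel and sends nitrogen to the rest of the plant. Autophagy, the delivery of cell contents to the vacuole in membrane vesicles built with ATG8 proteins, and vacuolar proteases carry much of that breakdown. A plant darkened as a whole has no lit leaves to export to, and its leaves keep their chlorophyll for longer than a single covered leaf does.

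Deposited intensities were analysed on the log2 scale, where a difference of 1 is a 2-fold change. The labelled tissue could be checked with 1 mesophyll marker, RCA, the activase of Rubisco, which was above the median of all genes on the IDL arrays (9.08, 9.33 and 9.41) and on the light arrays (11.14, 10.90 and 10.91). SWEET11, a sucrose exporter of the phloem, was 0.75 higher in IDL than in light. Of 2 guard cell markers, FMA was 0.40 higher and AT1G22690 was 3.16 lower in IDL, and the call of FMA was lost without IDL replicate 2 (0.31, adjusted p = 0.143, limma) and without light replicate 3 (0.33, adjusted p = 0.115). No marker of epidermis, xylem, dividing cells or root was measured, and the part of cell type composition in the results was not tested. Among 11 genes often used as stable references, 2 were higher, 1 was lower and 8 did not pass the test, with a median of 0.00. The lower gene, AT4G33380 (-0.33), lost its call in 9 of 16 other settings of the processing. AT5G15710 (0.34), among the higher, lost it in 4 of 16. Arrays of IDL day 6 correlated with each other at 0.9880 to 0.9893 across genes and light arrays at 0.9828 to 0.9871, against 0.8215 to 0.8428 between both groups. Genes are not independent replicates, and these values describe the arrays only.

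After 6 days, 6422 of 16174 genes (39.7%) differed between IDL and light at an adjusted p under 0.05 (limma, Benjamini-Hochberg over all genes). Of these, 3334 genes (20.6%) were higher and 3088 genes (19.1%) were lower in IDL. Most differences were small, since 64.7% of the called genes changed less than 2-fold. At least 2-fold, 998 genes were higher (6.17%) and 1272 were lower (7.86%). A change of at least 4-fold was called upward in 288 genes (1.78%) and downward in 433 genes (2.68%). At least 16-fold, 32 genes were higher (0.198%) and 51 were lower (0.315%). The median difference of all genes was 0.03 on the scale of the deposited values, whose normalization is not stated. The 3 IDL arrays did not overlap the 3 light arrays in 7887 genes (48.8%).

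**Figure D1:**
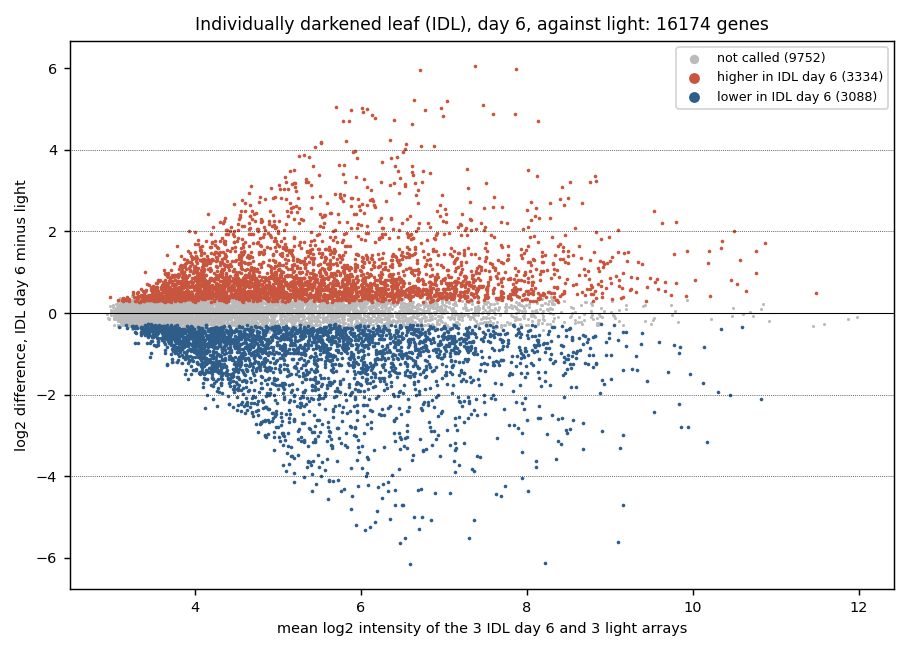
Each point is 1 of 16174 genes, with the mean log2 intensity of the 3 IDL day 6 and 3 light arrays on the x axis and the log2 difference, IDL day 6 minus light, on the y axis. Orange points are the 3334 genes called higher, blue points the 3088 genes called lower, and dotted lines stand at 4-fold and 16-fold changes.

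The share of genes going each way differed with how bright a gene was in light. Of the 575 genes with a light level of 8 or more, 18.6% were called higher and 60% lower in IDL. Of the 2392 genes between 6 and 8, 27% were higher and 44.9% lower. Between 4 and 6, the shares were 31.4% higher and 28.8% lower among 5030 genes. Below 4, where 8177 genes lay, 12.3% were higher and 2.68% lower. The light level enters the difference itself, and a gene near the lowest intensities has little room to fall, so these shares are a description of the arrays. The 5 chromosomes had similar shares of called genes, 38.9% to 40.3%, and the spread along a chromosome was not tested. Of the genes with a symbol, 840 of 1625 (51.7%) were called, and of those without one, 5582 of 14549 (38.4%).

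The largest rises reached more than 5 on the log2 scale, and most of these genes carry no symbol and no description in the sources used here, so they are given by locus code. AT4G33150, whose listed names include LKR/SDH, is the bifunctional enzyme that opens lysine breakdown. It stood at 10.20, 10.53 and 10.48 in IDL, against 4.32, 4.33 and 4.38 in light. Both groups were tight and far apart, a rise of 6.06 ± 0.13 (SE), or 66.9-fold, with an adjusted p of 2.61e-18. AT2G05540 was at 10.64, 10.86 and 11.07 in IDL and at 4.72, 4.84 and 5.07 in light, a rise of 5.98. AT1G62760 rose by 5.96 and AT5G28237 by 5.22. WES1, an enzyme of the GH3 family that couples auxin and salicylic acid to amino acids, was between 9.98 and 10.05 on the 3 arrays in IDL and at 4.55, 5.34 and 4.87 in light. Its rise of 5.09 is 34.0-fold, and the light arrays were the more scattered ones.

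PAP20, a purple acid phosphatase by name, had 8.29, 8.14 and 8.68 in IDL, against 3.23, 3.16 and 3.76 in light. AtLEA4-1, a protein of the late embryogenesis abundant class that accumulates in drying cells, had 8.31, 8.44 and 8.71 in IDL, against 3.73, 3.29 and 3.65 in light. Their rises were 4.98 and 4.93, and in both the arrays of the groups lay far apart. Both were below the median of all genes in light, as were 6 of the 15 largest rises. For such genes no fold is given, since the difference of a dim gene may be understated. The other 8 of the 15 were AT5G54165, AT1G28650, AT1G07400, AT1G73610, AT1G05340, AT3G18250, AT3G15450 and AT4G27450, which rose by 4.88 to 5.21. The 15 largest rises and the 15 largest falls had adjusted p-values of at most 8.98e-10, and 8 of these 30 genes carry a symbol.

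The largest fall was in NdhL, a subunit of the chloroplast NDH complex that moves electrons around photosystem I. NdhL had 3.68, 3.46 and 3.44 in IDL, against 9.51, 9.73 and 9.75 in light, a difference of -6.14 ± 0.12 (adjusted p 3.63e-19). Its IDL level lay below the median of all genes on those arrays, as did that of 8 of the 15 largest falls. ECS1 had 5.01, 5.61 and 4.87 in IDL, against 10.84, 11.51 and 11.48 in light, a difference of -6.11, or 69.3-fold lower. SBPASE, sedoheptulose bisphosphatase of the Calvin cycle, had 4.55, 4.46 and 4.65 in IDL and 10.15, 9.95 and 10.08 in light. It was 45.5-fold lower, with little scatter in either group. LrgB, the chloroplast exporter of glycolate and importer of glycerate in photorespiration, had 3.71, 3.62 and 3.96 in IDL and 9.28, 9.32 and 9.26 in light. GH9C2, a glycosyl hydrolase of the cellulase family, differed by -5.13. The other 10 were AT1G66100, AT5G42530, AT2G39850, AT1G76960, AT1G22430, AT1G51110, AT1G49750, AT5G08050, AT4G18440 and AT2G42220, with differences of -5.0 to -5.63.

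**Figure D2:**
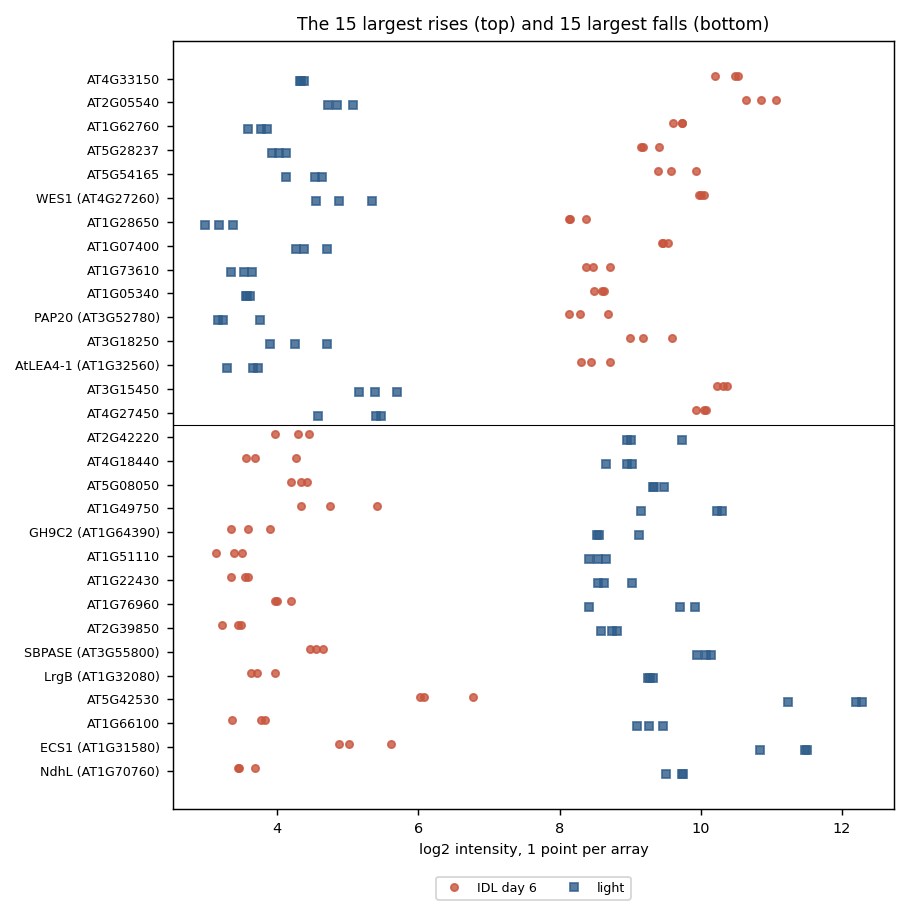
Log2 intensity of the 15 genes with the largest rises (top) and the 15 with the largest falls (bottom), 1 point per array, with IDL day 6 as orange circles and light as blue squares. The arrays of both groups do not overlap in any of these 30 genes, as the rule that chose them required; AT1G49750, AT1G76960 and AT5G42530 show scatter of more than 1 between replicates of a group.

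The genes of photosynthesis were lower together in the covered leaf. Of 9 measured genes for antenna and photosystem proteins, 9 fell, with a median of -2.63 against 0.03 for all genes. Over all genes, 19.1% were called lower. PSB27, an assembly factor of photosystem II, had 6.83, 6.22 and 6.61 in IDL, against 10.09, 10.19 and 10.15 in light, which is 12-fold lower. PSBW, a small subunit of photosystem II, had 8.56, 8.51 and 8.69 in IDL, against 12.18, 11.54 and 11.50 in light, and it was 8.92-fold lower. PSAN and PSAE-1 of photosystem I were 7.13-fold and 6.96-fold lower. The antenna genes LHB1B2 and LHCB4.2 differed by -2.43 and -2.63, while LHCB4.3 and LHCB4.1 of the same subfamily as LHCB4.2 differed by -1.13 and -0.75. The smallest of these 9 falls was that of LHCB4.1, and it still passed the test.

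The other 2 measured subunits of the NDH complex, NdhN and NdhU, differed by -4.09 and -3.76. ATPC1, the gamma subunit of the chloroplast ATP synthase, had 6.41, 6.23 and 6.13 in IDL, against 8.22, 8.52 and 8.22 in light, and fell by 2.06. PGRL1B, a component of cyclic electron flow, had a difference of -0.27 that did not pass, although it did without light replicate 1 (-0.37, adjusted p = 0.0193, limma). All 4 measured Calvin cycle genes fell, with a median of -3.69, beside 19.1% called lower over all genes. PRK, phosphoribulokinase, was 19-fold lower, AT1G56190 was 8.77-fold lower, and RCA was 3.28-fold lower. The 4 falls thus differed widely in size, from that of RCA to that of SBPASE.

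The 5 measured genes of photorespiration, which recycles the product of Rubisco's oxygen reaction, all fell, with a median of -3.66. HPR, peroxisomal hydroxypyruvate reductase, had 7.75, 7.45 and 7.78 in IDL, against 10.70, 10.54 and 10.70 in light, and was 7.92-fold lower. AT1G11860 and AT1G32470 of the same list differed by -3.66 and -3.88. Chlorophyll synthesis had 6 measured genes, which all fell, with a median of -2.77. Beside both lists, 19.1% of all genes were called lower. PORB, the light-dependent protochlorophyllide reductase, had 5.64, 5.74 and 5.64 in IDL and 9.43, 8.99 and 9.16 in light. It was 11.5-fold lower. CHLM, magnesium protoporphyrin methyltransferase, was 7.37-fold lower, and AT1G74470, listed as geranylgeranyl reductase, was 12.3-fold lower. The earlier steps GSA1, HEME1 and HEME2 differed by -1.40, -2.65 and -1.28. Of chlorophyll breakdown only 2 list members were measured and they went opposite ways. NOL, a chlorophyll b reductase, rose by 0.85, and AT1G44000 differed by -4.24.

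**Figure D3:**
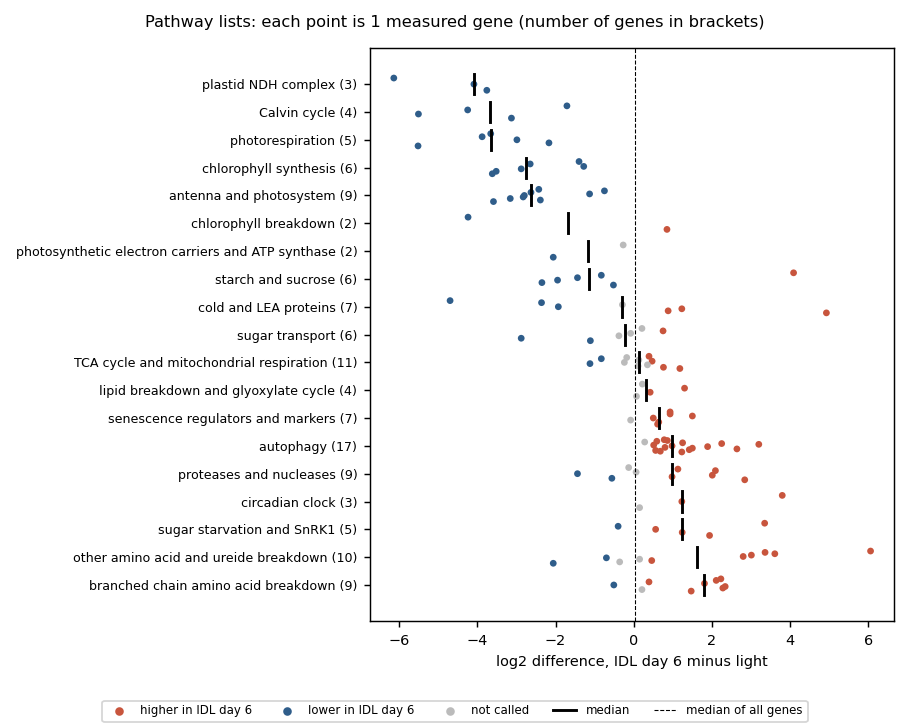
Log2 difference, IDL day 6 minus light, of each measured gene of 19 pathway lists, ordered by list median (black bar), with called genes in orange (higher) or blue (lower), others in grey, and the number of genes in brackets. The dashed line is the median of all 16174 genes, 0.03; photosynthesis lists lie at the left, with medians of -2.63 to -4.09 for NDH, Calvin cycle, photorespiration, chlorophyll synthesis and antenna, and amino acid breakdown lies at the right.

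Amino acid breakdown ran the other way. Of 9 measured genes for the breakdown of branched-chain amino acids, 7 rose, 1 fell and 1 did not pass, with a median of 1.81. Their called share was 88.9%, beside 39.7% of all genes (20.6% higher, 19.1% lower). ETFQO, which hands electrons from these amino acids to the respiratory chain, had 9.24, 9.10 and 9.25 in IDL, against 7.05, 6.79 and 6.91 in light, a 4.85-fold rise. MCCB, a subunit of methylcrotonyl-CoA carboxylase in leucine breakdown, had 8.13, 8.13 and 8.18 in IDL, against 5.87, 5.87 and 5.99 in light, a 4.69-fold rise. ALDH6B2, methylmalonate semialdehyde dehydrogenase of the valine route, rose 5.06-fold. D2HGDH, hydroxyglutarate dehydrogenase, rose by 1.47, AT1G21400 by 2.11 and AT4G20930 by 1.81. The 1 gene that fell was AT4G31810, at -0.51, and its call was lost without light replicate 2 (-0.24, adjusted p = 0.178, limma).

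Of 10 measured genes for the breakdown of other amino acids and of ureides, 6 rose, 2 fell and 2 did not pass, with a median of 1.63. Their called share was 80%, beside 39.7% of all genes. Besides AT4G33150, the lysine route held ALDH7B4, which rose 10.3-fold. AT5G38710 had 8.05, 8.24 and 8.34 in IDL, against 4.44, 4.51 and 4.84 in light, a 12.2-fold rise. MGL, methionine gamma-lyase, rose 8.08-fold, and DELTA-OAT, ornithine aminotransferase, rose by 2.80. The 2 falls were in nitrogen release from urea and ureides. URE, urease, differed by -0.70 and UGLYAH, ureidoglycolate amidohydrolase, by -2.06, while ALN, allantoinase, rose by 0.46. ASPGA1 (0.15) and AAH (-0.36) did not pass, although AAH did without IDL replicate 3 (-0.50, adjusted p = 0.0329, limma).

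Of 17 measured autophagy genes, 16 rose, 0 fell and 1 did not pass, with a median of 0.98. Their called share was 94.1%, beside 39.7% of all genes (20.6% higher). The ATG8 genes, whose products coat the autophagic membrane, gave the largest rises. ATG8B had 8.09, 7.99 and 7.92 in IDL, against 4.56, 4.82 and 5.03 in light, a 9.17-fold rise. ATG8H had 7.25, 7.37 and 7.58 in IDL, against 4.6, 4.82 and 4.84 in light, a 6.24-fold rise. APG8A rose by 2.25, ATG8E by 1.89, ATG8G by 1.5, APG8H by 1.42, ATG8D by 0.98, ATG8F by 0.80 and ATG8C by 0.51. The range among members of 1 family was thus wide, and the rise of ATG8C was lost when 1 IDL or 1 light array was left out (0.40, adjusted p = 0.0726 without IDL replicate 1, and 0.39, adjusted p = 0.0736 without light replicate 3). ATG3, the enzyme that joins ATG8 to its lipid, rose by 1.25. The member that did not pass was AT1G49180, with a difference of 0.28. How far probe sets keep near-identical family members apart was not tested.

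Of 9 proteases and nucleases, 5 rose, 2 fell and 2 did not pass, with a median of 0.98. Their called share was 77.8%, beside 39.7% of all genes (20.6% higher, 19.1% lower). GAMMA-VPE, the vacuolar processing enzyme of vegetative tissue, had 11.37, 11.57 and 11.55 in IDL, against 8.91, 9.63 and 9.90 in light, a 4.04-fold rise. BETA-VPE, the related enzyme known from seeds, had 4.72, 4.67 and 4.79 in IDL, against 5.87, 6.39 and 6.24 in light, and was 2.71-fold lower. ALPHA-VPE was at a difference of 0.06. AT4G04460 rose 7.14-fold, AT4G01610 4.26-fold, and APA1, an aspartic protease, rose by 0.98. Of 12 vacuolar protein sorting genes (VPS), 8 rose and 0 fell (66.7% called), led by VPS60.1 (1.30) and VPS60.2 (0.92). Of 12 ubiquitin-specific proteases (UBP), 5 rose, each by less than 1, and 0 fell, a called share of 41.7% beside the 39.7% of all genes. The calls of UBP16 and UBP27 were lost in 7 and 4 of 16 settings.

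Of 7 senescence regulators and markers, 6 rose, 0 fell and 1 did not pass, with a median of 0.64. Their called share was 85.7%, beside 39.7% of all genes. EIN3, the transcription factor of ethylene signalling, had 9.44, 9.72 and 9.53 in IDL, against 8.03, 8.01 and 8.14 in light, a 2.83-fold rise. WRKY6 and WRKY22, both senescence-associated WRKY factors, each rose by 0.93, and SAG101, an acyl hydrolase, by 0.64. SAG29, a sugar transporter of the SWEET family, did not pass, at -0.08. The size of these rises was modest beside those of ATG8B or AT4G33150. Many of the best known markers of senescence were not measured, so this list covers 7 of its 40 entries.

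Starch and sucrose genes were mostly lower, with 5 falls and 1 rise among 6 (100% called, beside 39.7% of all genes). AMY1, an alpha-amylase that is secreted, had 8.72, 8.80 and 8.78 in IDL, against 4.57, 4.70 and 4.76 in light, a 17.0-fold rise. SBE2.2, a starch branching enzyme, had 6.46, 6.54 and 6.67 in IDL, against 8.94, 8.88 and 8.89 in light, and was 5.09-fold lower. APL3, a large subunit of ADP-glucose pyrophosphorylase, was 3.86-fold lower. The starch breakdown enzymes DPE1 and PWD, which act inside the chloroplast, were 2.71-fold and 1.78-fold lower, and ATSPS4F, a sucrose phosphate synthase, differed by -0.52. Starch synthesis and chloroplast starch breakdown thus both held lower genes.

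Of 5 genes of the sugar starvation list, 4 rose and 1 fell (100% called), with a median of 1.24. Over all genes, 20.6% were called higher and 19.1% lower. AKINBETA1, a beta subunit of the SnRK1 energy-sensing kinase, had 9.79, 9.79 and 9.81 in IDL, against 6.21, 6.56 and 6.56 in light, a 10.2-fold rise. The related subunits AT4G16360 (KINbeta2) and AT2G28060 (KINbeta3) moved by -0.40 and 0.56. EXO rose by 1.94 and BZIP53, a bZIP factor of the starvation response, by 1.24. Of 6 sugar transport genes, 1 rose (SWEET11), 2 fell (SWEET17 and TMT2) and 3 did not pass, a called share of 50%. The SWEET family of 14 genes had 2 higher, 2 lower and 10 that did not pass (28.6% called, beside 39.7% of all genes). SWEET17, a fructose transporter of the vacuole membrane, had 3.78, 3.73 and 3.88 in IDL, against 6.67, 6.76 and 6.59 in light. SWEET13, a sucrose exporter that is not on that list but belongs to the same family, had 3.69, 3.58 and 3.66 in IDL, against 6.58, 6.53 and 6.65 in light. Both ended among the dim genes of the covered leaf, while SWEET11 rose by 0.75. TMT2, a sugar importer of the vacuole, differed by -1.11.

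Respiration and lipid genes had small median differences, with called shares of 54.5% and 50% beside the 39.7% of all genes. Of 11 genes of the TCA cycle and mitochondrial electron transport, 4 rose, 2 fell and 5 did not pass, with a median of 0.13. CYTC-2, a cytochrome c, rose by 1.18 and NDB2, an external NADH dehydrogenase, by 0.76. The rise of AT5G08300 (0.47) lost its call in 6 of 16 settings, among them without light replicate 2 (0.30, adjusted p = 0.245, limma). AT2G20420 and AT3G55410 differed by -1.12 and -0.83. Of 4 lipid genes, SDP1, the main triacylglycerol lipase, rose by 1.30 and SDP1-LIKE by 0.42, and ICL (0.07) and AIM1 (0.22) did not pass. The call of SDP1-LIKE was lost without IDL replicate 3 (0.29, adjusted p = 0.125, limma) and without IDL replicate 2 (0.39, adjusted p = 0.0557). ICL, isocitrate lyase, is the first enzyme of the glyoxylate cycle.

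Cold and dehydration proteins split. Of 7 measured, 3 rose, 3 fell and 1 did not pass, a called share of 85.7% beside the 39.7% of all genes. COR15A, a protein that protects chloroplast membranes in the cold, had 6.76, 6.44 and 7.23 in IDL, against 11.63, 11.50 and 11.40 in light, and was 25.9-fold lower. KIN2 was 3.81-fold lower and COR15B differed by -2.36. AtLEA4-1 (4.93), COR47 (1.23) and LTI30 (0.88) rose. Of 3 clock genes, COR27, a regulator of the clock and of freezing tolerance, had 8.03, 7.80 and 7.70 in IDL, against 4.18, 4.12 and 3.85 in light, a 13.9-fold rise. AT4G33980 rose by 1.23, and GI, GIGANTEA, did not pass, at 0.15.

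Families were drawn up from gene symbols after the annotation had been read, and each holds the members that the annotation names. Genes that build or loosen the cell wall are given by family, beside 20.6% higher and 19.1% lower over all genes. Of 24 trichome birefringence-like genes (TBL), several of whose products acetylate wall polymers, 2 rose, 11 fell and 11 did not pass, and TBL26 had 3.98, 4.09 and 4.42 in IDL, against 8.91, 8.75 and 8.92 in light. Of 19 expansins, which loosen walls in growing cells, 1 rose, 6 fell and 12 did not pass. The 1 rise, in EXPA20, lost its call in 2 of 16 settings, and the fall of EXPA9 in 4 of 16. EXPA8 had 3.35, 3.15 and 3.58 in IDL, against 7.82, 7.49 and 7.36 in light. Of 19 glycosyl hydrolases of family GH9, 5 fell and 14 did not pass, with GH9B7 at -4.69. Of 8 cellulose synthase-like genes, 1 rose, 5 fell and 2 did not pass, with CSLC04 at -3.96 and CSLD2 at 1.85. Of 9 xyloglucan endotransglucosylases (XTH), which cut and rejoin xyloglucan, 1 rose, 2 fell and 6 did not pass, with XTH32 at -3.36 and XTH29 at 3.21. The called shares of GH9 (26.3%), XTH (33.3%) and expansins (36.8%) were below the 39.7% of all genes.

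Of 6 tubulin genes, 4 fell, all of them beta-tubulins and led by TUB5 (-2.73) and TUB6 (-2.0), and TUB9 (-0.32) and the alpha-tubulin TUA6 (-0.24) did not pass. Of 14 IQ domain genes (IQD), which encode calmodulin-binding proteins tied to microtubules, 8 fell and 6 did not pass, with IQD31 at -3.23. Of 11 genes for CLE signal peptides, 6 fell and 5 did not pass, and the call of CLE18 was lost in 8 of 15 settings. Of 9 glutamate receptor-like genes (GLR), 1 rose and 4 fell, and GLR3.5 had 4.16, 4.24 and 4.10 in IDL, against 6.87, 7.38 and 7.81 in light. Called shares were 66.7% for tubulins, 57.1% for IQD, 54.5% for CLE and 55.6% for GLR genes, beside 39.7% of all genes (20.6% higher, 19.1% lower). Of 7 calmodulin-like genes (CML), coding for calcium sensors, 4 were called higher (57.1% called), 2 of them at least 2-fold, and 0 lower. The call of CML23 was lost without IDL replicate 2 (0.28, adjusted p = 0.0929, limma) and without light replicate 2 (0.36, adjusted p = 0.0556). CML41 had 6.32, 7.10 and 6.31 in IDL, against 3.39, 3.22 and 3.70 in light.

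Among detoxification and modifying enzymes both directions occurred. Called shares were 40.8% for UDP-glycosyltransferases, 66.7% for glutathione transferases and 40% for serine carboxypeptidase-like genes, beside 39.7% of all genes. Of 49 UDP-glycosyltransferases, 13 rose, 7 fell and 29 did not pass, with UGT87A2 at 2.69 and UGT71C4 at -1.30. Of 15 glutathione transferases, 3 rose, 7 fell and 5 did not pass, and GSTU20 had 4.12, 4.31 and 4.01 in IDL, against 8.75, 8.95 and 8.83 in light, which is 26.0-fold lower. Of 25 serine carboxypeptidase-like genes, 1 rose, 9 fell and 15 did not pass. The 1 that rose, scpl48, had 9.69, 9.76 and 9.89 in IDL, against 6.98, 7.14 and 7.26 in light, a 6.30-fold rise. Of 56 MADS box AGAMOUS-like genes, 13 rose, 3 fell and 40 did not pass, a called share of 28.6%, below the 39.7% of all genes. AGL104 rose by 2.40. Aux/IAA genes, which encode repressors of the auxin response, had 1 of 8 higher, 1 lower and 6 that did not pass. Their called share was 25%, below that of all genes. IAA29 differed by -1.93, and IAA18 rose by 1.20.

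**Figure D4:**
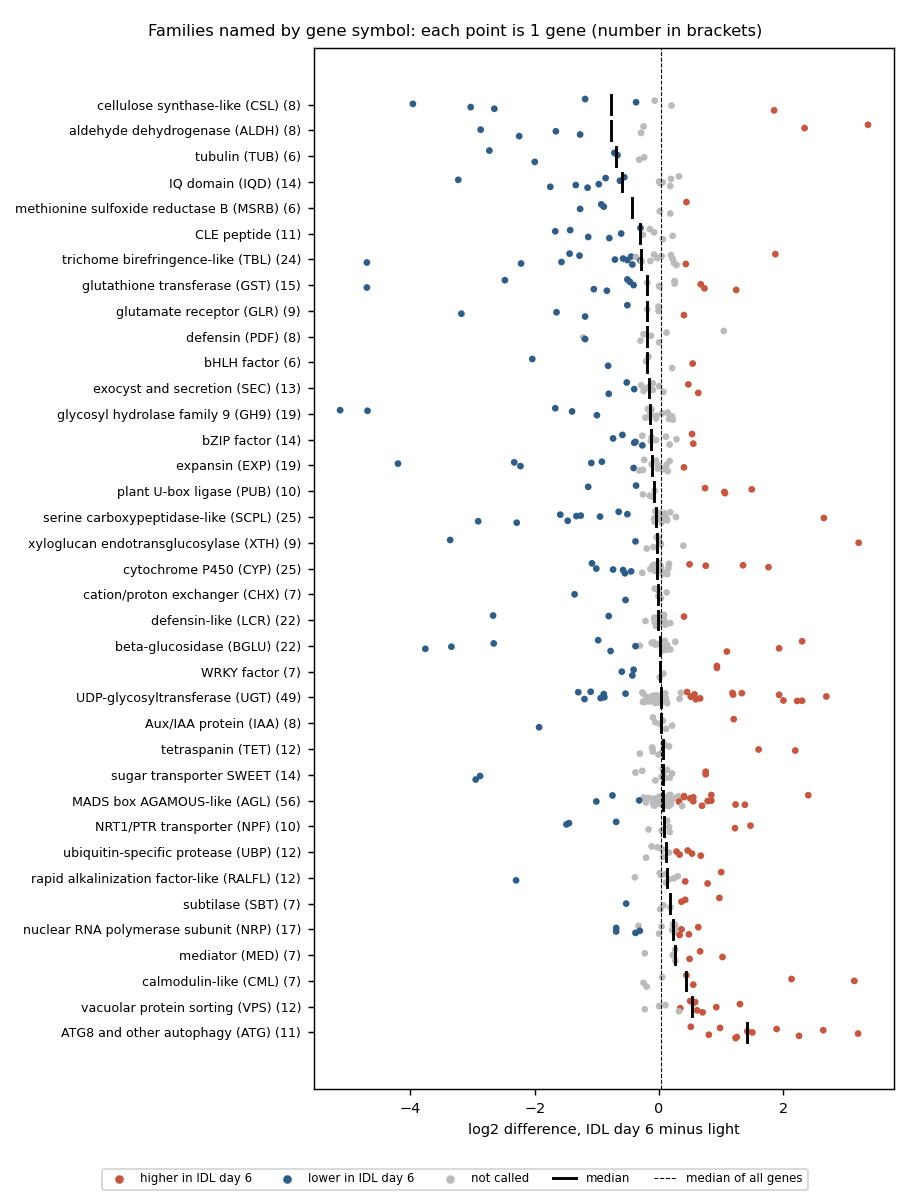
Log2 difference, IDL day 6 minus light, of each gene of 37 families named by symbol, ordered by family median (black bar), with called genes in orange (higher) or blue (lower), others in grey, and the number of genes in brackets. The ATG family lies at the bottom with all 11 genes higher and a median of 1.42, while most family medians lie within 1 of the dashed line, the median of all genes (0.03), with single members several units away.

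Set against the darkened plant at the same day, IDL differed in 4699 genes (29.1%), 2450 higher (15.1%) and 2249 lower (13.9%). Both comparisons use the same 3 IDL arrays, so the values of the 2 comparisons are given side by side and not correlated. The 2 largest rises against light, in AT4G33150 and AT2G05540, had differences from DP of 0.21 and 0.04 that did not pass. A change of at least 2-fold separated IDL from DP in 1115 genes (6.89%), 652 higher (4.03%) and 463 lower (2.86%).

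The largest excess over DP, among genes that changed at least 2-fold from light, was in AT1G07400. It had 9.47, 9.45 and 9.53 in IDL, against 4.44, 4.09 and 4.27 in DP, a difference of 5.22 (adjusted p 4.45e-13). PAP20 was 4.6, AT5G28237 4.53, AT1G28650 4.36 and AMY1 4.33 above DP. AMY1 had 4.04, 4.43 and 4.84 in DP, near its light level. scpl48 had 5.64, 5.52 and 5.83 in DP, below its light level, and lay 4.12 above DP in IDL. AT5G38710 was 3.41 above DP. Autophagy genes were called higher than in DP in 12 of 17 and lower in 0, with a median of 0.84 against -0.03 for all genes. Genes of the TCA list were higher than in DP in 7 of 11 and lower in 1, with a median of 0.57, led by CYTC-2 (1.71) and SDH1-1 (1.57). Called shares against DP were 70.6% of the autophagy list and 72.7% of the TCA list, beside 29.1% of all genes. Against light, CYTC-2 rose by 1.18 and SDH1-1, at 0.35, did not pass.

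Branched-chain amino acid breakdown was split against DP, with 3 genes higher and 4 lower. MCCB, ETFQO, AT1G21400 and ALDH6B2, all raised against light, were 0.87, 0.73, 0.63 and 0.49 lower in IDL than in DP (differences of -0.87, -0.73, -0.63 and -0.49). Photorespiration was lower in IDL in 5 of 5 genes, with a median of -1.16, and PRK, PSB27 and HPR lay at -2.57, -2.09 and -1.85. Antenna and photosystem genes as a list were split, 3 higher and 3 lower, with PSBW at 0.84 and LHB1B2 at 0.89. Called shares against DP were 77.8% for branched-chain breakdown, 100% for photorespiration and 66.7% for antenna and photosystem. Over all genes, the share was 29.1% (15.1% higher, 13.9% lower).

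The largest deficits against DP were in AT5G19190 (-4.46), AT5G16030 (-4.40), AT5G44020 (-4.35), AT1G28100 (-4.04) and AT4G16563 (-3.80). AT5G19190 had 3.53, 3.77 and 3.51 in IDL, against 8.00, 8.07 and 8.14 in DP, where it stayed near the light level of 8.18, 7.43 and 7.56. AT5G16030 had 3.25, 3.59 and 3.75 in IDL, against 8.08, 7.83 and 7.90 in DP. AT1G28100 had 4.66, 4.55 and 4.73 in IDL and 8.12, 9.26 and 8.68 in DP, with light arrays of 6.66, 5.79 and 5.65 between both. In these genes the groups lay far apart on every array.

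Between day 3 and day 6 of covering the leaf changed less. At day 6, 1398 genes (8.64%) differed from day 3, 779 higher (4.82%) and 619 lower (3.83%). That split moved with scaling, to 921 higher and 455 lower when arrays were centred on their median and to 1063 higher and 295 lower when they were centred on the reference genes. Without IDL day 3 replicate 2, 918 genes were called. At least 2-fold, 240 genes differed (1.48%), 189 higher (1.17%) and 51 lower (0.315%), and at least 4-fold, 38 were higher (0.235%) and 1 was lower (0.00618%).

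A handful of genes were low at day 3 and high at day 6. AT3G46080 had 8.56, 8.51 and 8.62 at day 6, against 4.40, 4.97 and 4.39 at day 3, a difference of 3.98 ± 0.14 (adjusted p 6.73e-14). AT5G64870 had 7.77, 7.60 and 7.44 at day 6, against 3.62, 4.01 and 4.21 at day 3. AT1G33760 had 7.47, 7.18 and 7.08 at day 6, against 3.08, 3.85 and 3.34 at day 3. These 3 genes, with AT4G33930 (3.86) and AT4G15680 (3.47), were the 5 largest late rises among genes changed at least 2-fold from light. All 5 were also 3.55 to 4.12 above DP at day 6, so their high level was seen in 1 of these 4 groups. None carries a symbol.

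The largest late falls among such genes were in ECS1 (-2.22), AT5G16030 (-1.94), AT1G01390 (-1.81), AT2G39850 (-1.74) and AT3G16670 (-1.71). ECS1 had 5.01, 5.61 and 4.87 at day 6, against 7.17, 8.15 and 6.85 at day 3, so its fall against light had begun by day 3. Among the lists, photorespiration was called lower than at day 3 in 4 of 5 genes (median -0.52) and antenna and photosystem in 4 of 9 (median -0.42). Over all genes, 3.83% were called lower, with a median of -0.04, and the number lower moved with scaling. Some of these list calls lay near the threshold, as in PSAE-1 (-0.52, adjusted p = 0.0457, limma) and AT1G11860 (-0.49, adjusted p = 0.0307). Autophagy was called higher than at day 3 in 1 of 17 genes, ATG8H at 0.76, with a median of -0.10.

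**Figure D5:**
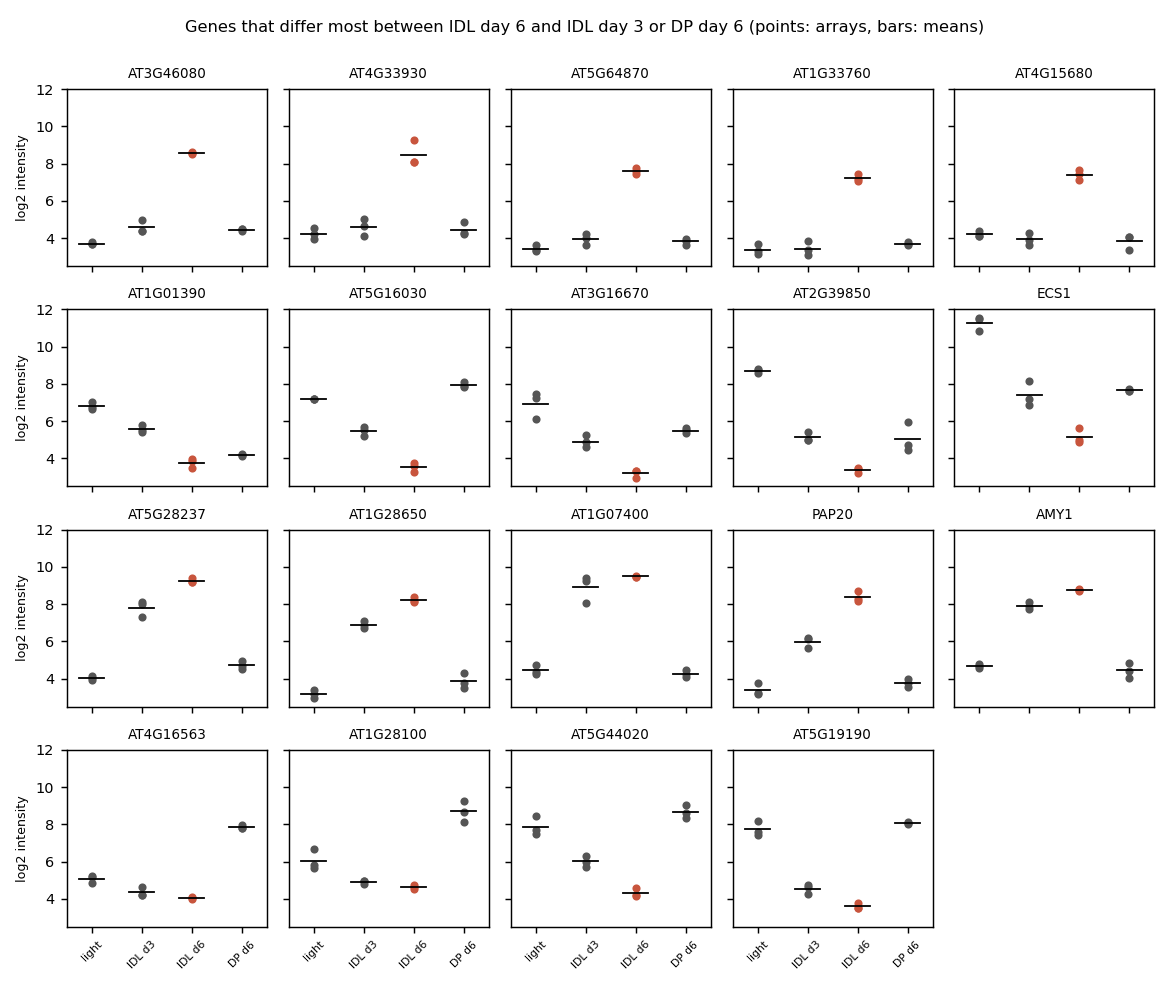
Log2 intensity of 19 genes on 3 arrays each (points) with group means (bars), in light, IDL at days 3 and 6 (orange) and DP at day 6. The top row holds the 5 largest rises of IDL day 6 over IDL day 3, the second row the 5 largest falls, the third row the 5 largest excesses over DP and the last row 4 of the 5 largest deficits against DP, of which AT5G16030 is shown in the second row; the genes of the top row are high on the 3 IDL day 6 arrays and low on the other 9.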

How the data were processed

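Leaf transcripts were measured on 15 arrays, and the comparisons here use 12 of them. The deposited file gives the authors' intensity of each probe set in linear units. It was made with oligo, per the submitters' processing notes. For its background correction and normalization, the method is not given in the sources read. Array medians lay between 18.3 and 19.6, no detection calls were used, and array number (3 per group) limits the precision.

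Log2 was taken of all values. Of 26676 probe sets, 16179 named 1 gene, 588 named several and 9909 named none. The brightest probe set stood for each gene, which gave 16174 genes, and RefSeq symbols were matched by locus code. Group means were fitted to all 15 arrays with limma 3.58.1 in R 4.3.3 (lmFit, eBayes), which was checked on simulated data. IDL at day 6 was contrasted with light, with DP at day 6 and with IDL at day 3, with calls at an adjusted p under 0.05 (two-sided, Benjamini-Hochberg over all genes).

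Named genes are the 15 largest rises and falls without overlap of arrays, up to 4 called genes each way per list or family (others are given by range or in passing), and the 5 largest differences each way from DP and from IDL day 3 among genes changed at least 2-fold from light. The members, lists and families were chosen with earlier results of these data known. Of 484 list entries, 124 (25.6%) were measured. Nitrogen assimilation and transport genes, and the markers of epidermis, xylem, dividing cells and root, had none measured. Samples were not paired by replicate number in the main fit. Deviations of same-numbered arrays from their group means correlated at -0.045 to 0.077, which cannot show whether those samples were handled together. Alternatives were a stricter threshold, a 2-fold minimum, other scalings, filters, priors, weights and fits, a replicate block and leaving out each array. No sequences are shown, since none were used here, and some genes are not reported here.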

Additional observations from a re-analysis of the deposited data

Results flagged for a closer look

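Among the 695 genes in lists, families or named by the rule, 18 were called higher than light and were also at least 2-fold higher at day 6 of covering than at day 3, a difference tested directly between both days (limma, adjusted p under 0.05). Over all genes, 189 (1.17%) were called at least 2-fold higher than at day 3, with no call against light required. The 695 include genes named for having the largest differences from day 3, so the 2 counts are not a comparison. The gain from day 3 was 3.98 in AT3G46080, 3.86 in AT4G33930, 3.82 in AT1G33760, 3.66 in AT5G64870 and 3.47 in AT4G15680 on the log2 scale. It was 2.58 in AT5G54165, 2.40 in PAP20, 1.51 in AT1G73610, 1.45 in AT5G28237, 1.31 in AT1G28650 and 1.08 in AtLEA4-1. Among members of lists and families it was 1.89 in EXO, 1.88 in AT4G04460, 1.66 in CML38, 1.30 in RALFL22, 1.17 in AGL75, 1.11 in UGT73B3 and 1.07 in LTI30.

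Over all genes, 51 (0.315%) were called at least 2-fold lower than at day 3, and the same limits hold for this count. Of the same 695 genes, 11 were called lower than light and were also at least 2-fold lower at day 6 than at day 3. The further difference was -2.22 in ECS1, -1.94 in AT5G16030, -1.81 in AT1G01390, -1.74 in AT2G39850, -1.71 in AT3G16670 and -1.70 in AT5G44020. It was -1.24 in AT5G42530, -1.07 in AT2G42220, -1.06 in AT1G49750, -1.04 in AT1G76960 and -1.01 in BGLU33. A further 3 genes differed at least 2-fold from day 3 but not in the direction of a call against light. AGL104, higher than light, was at -1.27 from day 3, DPE1, lower than light, was at 1.09, and EXPA16 was at -1.35.

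Probe sets outside the gene tests also differed between IDL day 6 and light. When all 26676 probe sets were fitted together, 5241 of the 9909 with no gene were called (52.9%), 2491 higher and 2750 lower. Of the 588 with several genes, 290 were called (49.3%).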

How the results depend on the processing

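Against light, 5884 to 6112 genes were called when 1 array was left out, and 6229 to 6688 under the other scalings, filters, priors, weights and fits, beside 6422. At an adjusted p under 0.01, 5314 were called, and 2270 with a 2-fold minimum. Against DP, leaving out 1 array gave 3963 to 4405 calls beside 4699, the stricter threshold 3425 and the 2-fold minimum 1115. Against IDL day 3, leaving out 1 array gave 918 to 1169 calls beside 1398, the lowest without IDL day 3 replicate 2. The stricter threshold gave 743 and the 2-fold minimum 240. With the replicate number as a block, 6427, 4750 and 1411 genes were called in the 3 comparisons, beside 6422, 4699 and 1398 without it. Of 695 genes in lists, families or named, 363 were called against light, 312 of them in every setting that tested them, 51 lost the call in at least 1, and 30 of 332 uncalled genes gained one. There were 16 settings, 15 for the 165 genes that the filter on dim genes left out. The sign changed in 0 of the 363 called genes and in 131 of the 695 genes. The cause of lost calls was not tested. Limits are the missing detection calls, 3 arrays per group, light leaves of day 0 only, and an annotation that names no gene for 9909 probe sets.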

Other observations

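Some genes that changed at least 4-fold lay next to each other. Over all genes, 1.78% were called at least 4-fold higher and 2.68% at least 4-fold lower. Among 10017 pairs of genes next to each other in the RefSeq gene order and both measured, both members were at least 4-fold higher in IDL than in light in 10 pairs, both at least 4-fold lower in 9, and opposite in 5. The higher pairs include AT3G46070 (2.83) with AT3G46080 (4.86), AT2G32190 (2.65) with AT2G32200 (3.51), AT1G28650 (5.04) with AT1G28660 (2.94), and UGT73B2 (2.30) with UGT73B1 (2.22). The lower pairs include COR15B (-2.36) with COR15A (-4.70) and AT3G16660 (-3.99) with AT3G16670 (-3.73). Opposite neighbours were PORB (-3.52) with AT4G27450 (4.88), LrgB (-5.52) with AT1G32090 (2.16), and AKINBETA1 (3.35) with AT5G21222 (-2.51). The number of such pairs to be found by chance was not computed, and cross-hybridization between similar neighbours was not tested.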
